A study of Mus musculus with 16 samples.

Results

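Mat1a, Mat2a, Gnmt, Ahcy, Bhmt, Pemt, Cbs, Cth and Chdh, the genes for the enzymes of the hepatic methionine cycle, choline oxidation and transsulfuration, were followed through 16 mouse liver libraries. They were chosen by symbol with earlier results of these data known, and all 9 were found among the 17410 genes of the deposited tables. The Ad_Chrebpa_HFLMCD livers (livers 13 to 16) and the Ad_GFP_HFLMCD livers (livers 9 to 12) came from wildtype mice that were 2 months old. Those mice ate the HFLMCD diet, which has 45% of its calories as fat, no choline and 0.1% added methionine, for 3 weeks by their labels. They were given an adenovirus carrying Chrebpα or GFP and fed for 1 further week before dissection, and the labels do not say whether the 3 weeks include that week. The LKO_NASH livers (livers 21 to 24) and the WT_NASH livers (livers 17 to 20) came from Chrebpα-flox/flox mice, whose age the labels do not state. Those mice were injected with AAV-TBG-Cre or AAV-TBG-GFP and ate a NASH diet for 12 weeks, in which fat supplied 40% and fructose 20% of the calories and cholesterol was added at 2%. TBG is a hepatocyte promoter, so the Cre of the LKO_NASH mice is limited to hepatocytes, and every group carried a virus. Each group had 4 libraries of total liver RNA.

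The methionine cycle turns methionine into S-adenosylmethionine, the cell's general methyl donor, and returns the homocysteine left after methyl transfer to methionine or passes it on to cysteine. Liver carries most of this traffic, and adult hepatocytes make S-adenosylmethionine mainly with the enzyme that Mat1a encodes, whereas Mat2a is the form of other tissues, fetal liver and dividing hepatocytes. Choline feeds the cycle through its oxidation to betaine, and diets short of choline and methionine are an established way to produce steatohepatitis in mice.

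The libraries held 21254937 to 40327264 expected counts, and the 9 genes had between 2011 and 136783 expected counts in any liver. Mlxipl, the gene of ChREBPα and target of both experiments, had a mean FPKM (sequenced fragments scaled to transcript length and library total) of 46.1 in Ad_Chrebpa_HFLMCD and 43.7 in Ad_GFP_HFLMCD livers. Its mean was 76.4 FPKM in LKO_NASH and 66.1 FPKM in WT_NASH livers. The edgeR log2 fold change of Mlxipl was 0.15 for Ad_Chrebpa_HFLMCD against Ad_GFP_HFLMCD (adjusted p = 0.242) and 0.06 for LKO_NASH against WT_NASH (adjusted p = 0.916). Neither more Mlxipl RNA with the Chrebpα virus nor less after the deletion was therefore shown, and these totals do not check the labels. The gene total does not separate isoforms, and no source states whether the viral transcript is counted in it or which part of the gene was deleted.

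The labels do not say that each sample is a separate animal. The scatter within groups against which the p-values judge each difference may therefore be technical and not between animals. Hepatocyte markers summed to 44549 to 70290 FPKM per liver and no marker of the list was at 0 in all livers of a group, as the tissue label has it. Hba-a2, an alpha globin gene of red cells, had 73.4 to 217.7 FPKM in Ad_Chrebpa_HFLMCD and 1.80 to 2.48 FPKM in Ad_GFP_HFLMCD livers, and 358.0 to 1100.9 FPKM in the NASH livers. The 4 Ad_GFP_HFLMCD libraries thus stood apart from the other 12 in this gene, and its bearing on the results was not tested. Its near copy Hba-a1 had 176.5 to 457.8 FPKM in Ad_Chrebpa_HFLMCD and 461.2 to 732.2 FPKM in Ad_GFP_HFLMCD livers, and the split of shared reads between the copies is uncertain. The summed FPKM of both copies overlapped, at 249.9 to 675.5 in Ad_Chrebpa_HFLMCD and 463.7 to 734.0 in Ad_GFP_HFLMCD livers.

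The sequence of the Mat2a transcript is described here, and its part in the results below was not tested. In human and mouse cells its 3' UTR holds hairpins with the METTL16 recognition letters, through which the message is known to be spliced and kept stable according to the supply of S-adenosylmethionine. A search of the GENCODE M21 transcripts (GRCm38) for TACAGAGAA or TACAGAAAA on the sense strand found 6 copies in Mat2a-201, whose 2804 bases are the length in the deposited tables. All 6 lie in the 3' UTR, on the minus strand of chromosome 6, between 40 and 1337 bases after the stop codon. Each is shown with 10 bases on either side, and the capitals mark the motif.
Mat2a site 1, chr6:72434235-72434263: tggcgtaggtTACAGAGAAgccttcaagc
Mat2a site 2, chr6:72433451-72433479: ccttgtgataTACAGAGAAgtcacagggc
Mat2a site 3, chr6:72433272-72433300: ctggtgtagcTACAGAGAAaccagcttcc
Mat2a site 4, chr6:72433157-72433185: atggcgtaagTACAGAGAAgccatcacct
Mat2a site 5, chr6:72433046-72433074: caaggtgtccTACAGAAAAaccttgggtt
Mat2a site 6, chr6:72432938-72432966: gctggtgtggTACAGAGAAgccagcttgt
Site 5 has TACAGAAAA and the other 5 sites have TACAGAGAA. The transcripts matched to the other 8 genes held 0 copies. Of 5357 protein-coding transcripts within 10% of the length of Mat2a-201, 399 (7.45%) held at least 1 copy, and Mat2a was the 1 gene among 58797 protein-coding transcripts of any length with at least 6. The letters were searched because this message is known to carry them, so the place of Mat2a among all transcripts is not an independent finding. A letter match is a description and does not show that a site is used.

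RefSeq promoter windows (GRCm38.p6, 250 bases before a transcript start) were present for 7 of the 9 genes. Those of Mat2a, Gnmt, Ahcy and Cbs are shown 5' to 3' on the gene's strand because the first 3 genes had the largest fold changes of the 9 between the adenovirus groups and Cbs alone held a perfect E box. Capitals mark CACGTG (the core E box, which reads the same on both strands), CCAAT on either strand (written ATTGG where it lies on the opposite strand) and TATAAA.
Mat2a, chr6:72439557-72439806: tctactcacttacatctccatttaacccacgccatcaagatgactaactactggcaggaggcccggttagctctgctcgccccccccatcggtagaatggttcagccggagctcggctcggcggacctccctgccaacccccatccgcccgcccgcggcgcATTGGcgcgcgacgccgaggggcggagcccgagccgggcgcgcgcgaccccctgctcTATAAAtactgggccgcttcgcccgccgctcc
Gnmt, chr17:46729166-46729415: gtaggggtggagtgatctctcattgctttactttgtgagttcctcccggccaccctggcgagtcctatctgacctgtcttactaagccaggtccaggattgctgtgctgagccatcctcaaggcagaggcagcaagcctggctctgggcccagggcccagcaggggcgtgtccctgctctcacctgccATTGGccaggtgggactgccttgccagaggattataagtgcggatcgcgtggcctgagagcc
Ahcy, chr2:155074498-155074747: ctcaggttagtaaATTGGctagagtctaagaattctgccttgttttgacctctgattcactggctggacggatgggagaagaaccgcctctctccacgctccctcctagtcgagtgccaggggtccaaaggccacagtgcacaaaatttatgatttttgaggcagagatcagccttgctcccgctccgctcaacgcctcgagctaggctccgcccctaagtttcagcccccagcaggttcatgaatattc
Cbs, chr17:31637206-31637455: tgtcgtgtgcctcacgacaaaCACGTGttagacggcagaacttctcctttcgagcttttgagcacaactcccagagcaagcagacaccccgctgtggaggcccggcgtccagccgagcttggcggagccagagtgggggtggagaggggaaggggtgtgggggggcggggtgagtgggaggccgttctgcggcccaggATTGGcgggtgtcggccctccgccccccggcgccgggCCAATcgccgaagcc
CACGTG was found in 6.02% of 32851 promoter windows and, among the 9 genes, in that of Cbs, 229 bases before the start. The carbohydrate response element bound by ChREBP pairs imperfect E boxes, and a pair of CACGTG with any 5 letters between them was found in 0 of 32851 windows, so this search says nothing about ChREBP at these genes. CCAAT was in 33.8% of the windows and in those of Ahcy, Bhmt, Cbs, Gnmt, Mat2a and Pemt. TATAAA was in 12.4% of the windows and in that of Mat2a, 32 bases before the start. All the windows shown lie on the minus strand, and those of Gnmt and Cbs overlap the 5' end of a longer transcript of the same gene.

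By mean FPKM the genes kept a wide range of levels within a liver. Mat1a ranked between place 72 and place 86 of 17410 genes in the 4 groups, the highest or second highest of the 9. Bhmt ranked 87 in Ad_Chrebpa_HFLMCD, 73 in Ad_GFP_HFLMCD, 79 in LKO_NASH and 173 in WT_NASH livers. Chdh, the choline dehydrogenase, ranked between 1409 and 1548. Mat2a changed its place most, ranking 1007 in Ad_Chrebpa_HFLMCD and 686 in Ad_GFP_HFLMCD livers, and 1564 in LKO_NASH and 1424 in WT_NASH livers. FPKM is a level per length of transcript, so genes can be ranked on it, whereas the tests below used counts.

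**Figure D1:**
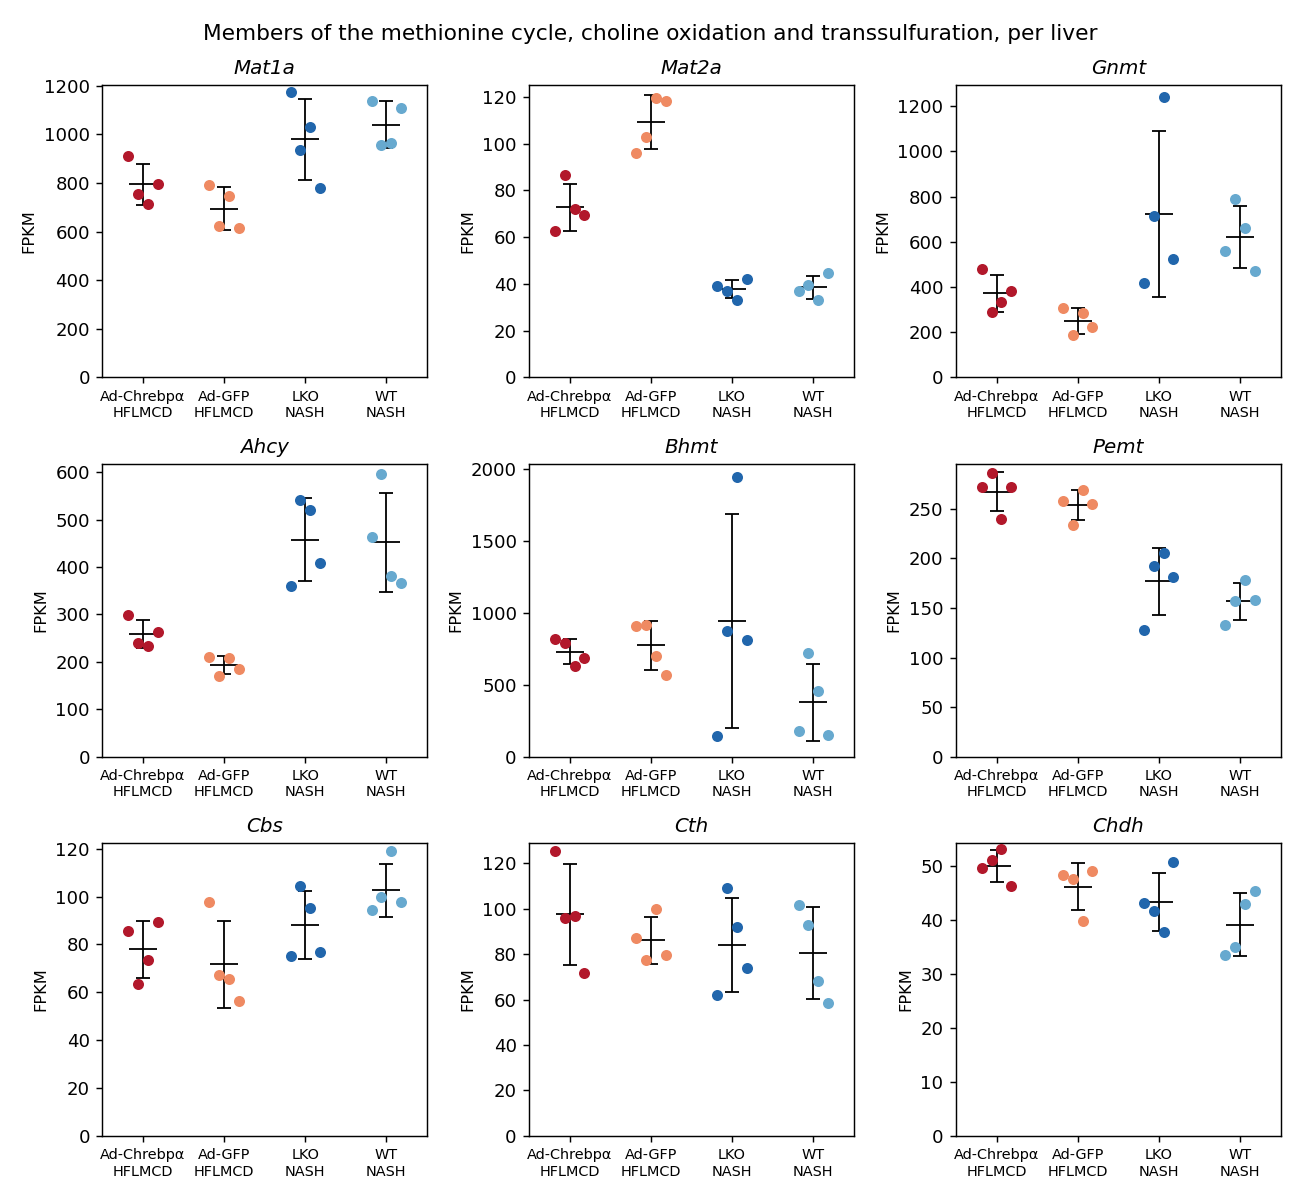
FPKM of the 9 genes in each of the 16 livers, with 1 panel per gene on a linear axis from 0, 1 point per liver, and a line with bars for the mean and SD of 4 livers. Mat2a lies highest in Ad_GFP_HFLMCD livers (96.1 to 119.4 FPKM), and Bhmt is scattered widely in the NASH groups (140.7 to 1945.7 FPKM in LKO_NASH livers).

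Adenoviral Chrebpα under the HFLMCD diet was set against adenoviral GFP to ask what more ChREBPα does to the liver in this model. Mat2a fell in Ad_Chrebpa_HFLMCD livers and Ahcy, which removes S-adenosylhomocysteine, rose. Mat1a and Gnmt had positive fold changes that missed the threshold. The call is an adjusted p below 0.05 (edgeR quasi-likelihood test, Benjamini-Hochberg adjustment over 13656 genes), and 2 of the 9 genes met it where 8.14% of all tested genes did. Of all tested genes 4.96% were called higher and 3.18% lower, and of the 9 genes 1 each. An unadjusted p below 0.05 was found for 4 of the 9 genes and for 26.6% of all tested genes. The genes' median log2 fold change was 0.19, against -0.01 over all tested genes, and 7 of 9 were above 0. Because the 9 genes were chosen with earlier results known, their shares beside those of all genes are a description only.

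Mat2a had 62.7, 86.8, 71.9 and 69.6 FPKM in Ad_Chrebpa_HFLMCD livers 13 to 16, against 96.1, 102.8, 119.4 and 118.4 FPKM in Ad_GFP_HFLMCD livers 9 to 12. The groups did not overlap, and liver 14 was the Ad_Chrebpa_HFLMCD liver nearest to the GFP group. The log2 fold change was -0.52 (SE 0.10, 95% interval -0.75 to -0.28, adjusted p = 0.0186). FPKM did not overlap between the groups for 19.4% of tested genes (4.85% higher and 14.5% lower in Ad_Chrebpa_HFLMCD livers), and for Mat2a and Ahcy among the 9. The adjusted p of Mat2a was 0.0531 without liver 11, 0.0588 without liver 12, 0.0526 without liver 13, 0.0508 without liver 15 and 0.0610 without liver 16.

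Ahcy encodes the hydrolase that splits S-adenosylhomocysteine, the product and inhibitor of methyl transfer. It had 298.9, 240.6, 233.6 and 263.9 FPKM in Ad_Chrebpa_HFLMCD livers 13 to 16, against 211.0, 169.7, 207.5 and 185.2 FPKM in Ad_GFP_HFLMCD livers 9 to 12. Every Ad_Chrebpa_HFLMCD liver was above every Ad_GFP_HFLMCD liver. The log2 fold change was 0.49 (SE 0.11, 95% interval 0.24 to 0.74, adjusted p = 0.0288). The adjusted p was 0.0774 without liver 12, 0.0640 without liver 13, 0.0775 without liver 16, and 0.166 with all 16 libraries in 1 fit. The counts of Ahcy carry decimals in all 16 libraries, and the Ahcy-like gene Gm4737 stood at 203.1 to 254.0 FPKM in Ad_Chrebpa_HFLMCD and 154.34 to 199.96 FPKM in Ad_GFP_HFLMCD livers, so the split of shared reads between these copies is uncertain.

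Gnmt encodes glycine N-methyltransferase, which disposes of spare S-adenosylmethionine in hepatocytes. It had 481.5, 289.3, 333.8 and 381.3 FPKM in Ad_Chrebpa_HFLMCD livers 13 to 16, against 307.5, 186.3, 282.9 and 221.6 FPKM in Ad_GFP_HFLMCD livers 9 to 12. The groups overlapped through liver 14 of the first group and liver 9 of the second. The log2 fold change was 0.64 (SE 0.20, 95% interval 0.20 to 1.09), with an unadjusted p of 0.00916 and an adjusted p of 0.0755 in edgeR. The adjusted p was 0.0397 in edgeR without liver 14 and 0.0122 in DESeq2 with all 8 livers.

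Mat1a had 910.5, 755.1, 713.5 and 794.7 FPKM in Ad_Chrebpa_HFLMCD livers 13 to 16, against 790.6, 623.4, 747.3 and 612.8 FPKM in Ad_GFP_HFLMCD livers 9 to 12. The groups overlapped, and the log2 fold change of 0.26 had a 95% interval of -0.01 to 0.54 (edgeR adjusted p = 0.198). Within a liver, the ratio of Mat1a to Mat2a FPKM does not depend on how libraries are scaled. The ratio was 14.5, 8.70, 9.92 and 11.4 in Ad_Chrebpa_HFLMCD livers (mean 11.1 ± 2.51 SD, n = 4), against 8.23, 6.06, 6.26 and 5.18 in Ad_GFP_HFLMCD livers (mean 6.43 ± 1.29 SD, n = 4). All 4 Ad_Chrebpa_HFLMCD livers were above all 4 Ad_GFP_HFLMCD livers, with the smallest gap between liver 14 and liver 9. Mat2a FPKM alone did not overlap between these groups, so the separation of the ratio is not an independent result.

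**Figure D2:**
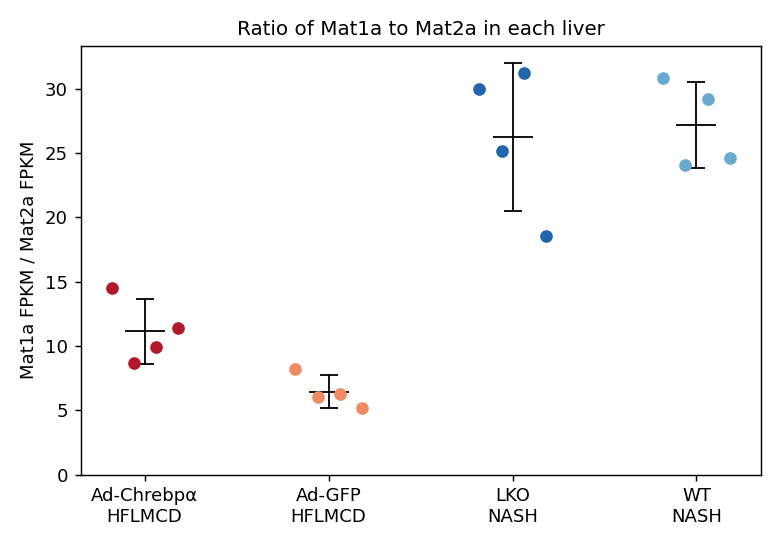
Ratio of Mat1a FPKM to Mat2a FPKM in each liver on a linear axis from 0, with 1 point per liver and a line with bars for the mean and SD of 4 livers. The ratio lies between 5.18 and 8.23 in Ad_GFP_HFLMCD livers, between 8.70 and 14.5 in Ad_Chrebpa_HFLMCD livers, and at 18.6 or above in every NASH liver.

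The other 5 genes did not pass the test between the adenovirus groups. Bhmt, which returns homocysteine to methionine with betaine as the methyl donor, had a mean of 730.6 ± 86.9 FPKM in Ad_Chrebpa_HFLMCD livers and 776.1 ± 170.4 FPKM in Ad_GFP_HFLMCD livers (SD, n = 4 each). Its log2 fold change of -0.01 had a 95% interval of -0.35 to 0.33 (edgeR adjusted p = 0.968). Pemt, which methylates phosphatidylethanolamine to phosphatidylcholine, had 239.5 to 286.7 FPKM in Ad_Chrebpa_HFLMCD and 233.9 to 269.5 FPKM in Ad_GFP_HFLMCD livers, with a log2 fold change of 0.15 (95% interval -0.03 to 0.33). Chdh, which starts the oxidation of choline to betaine, had the smallest p of these 5, with a log2 fold change of 0.19 (95% interval 0.02 to 0.35, edgeR adjusted p = 0.142). The transsulfuration genes Cbs, which joins homocysteine to serine, and Cth, which releases cysteine, had log2 fold changes of 0.19 (95% interval -0.20 to 0.58) and 0.25 (95% interval -0.11 to 0.61). The interval of Cbs was the widest of these 5, and a missed threshold does not show equal levels.

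**Figure D3:**
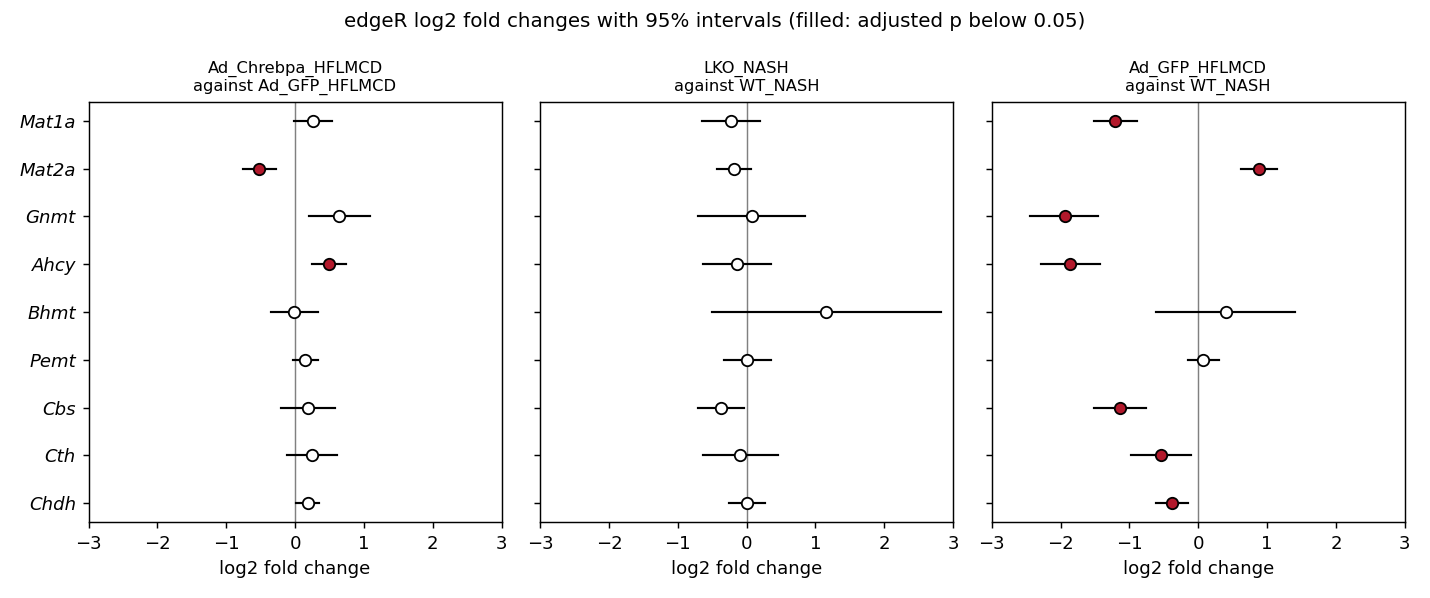
edgeR log2 fold changes of the 9 genes with 95% intervals in 3 comparisons on a shared axis, the first-named group of each over the second, filled where the adjusted p is below 0.05. Mat2a (-0.52) and Ahcy (0.49) are filled for Ad_Chrebpa_HFLMCD, no gene is filled for LKO_NASH, and 7 genes are filled for Ad_GFP_HFLMCD against WT_NASH.

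Genes around the 9 enzymes were taken from 7 neighbouring pathway lists, which were chosen with earlier results of these data known. Their share of calls beside that of all genes is therefore a description only. By edgeR with all 8 livers, 13 of 95 tested genes were called higher in Ad_Chrebpa_HFLMCD livers and 0 lower, where 4.96% of all tested genes were higher and 3.18% lower. The median log2 fold change of the lists was 0.11. Lower calls appeared in other settings, with 17 higher and 3 lower without liver 14, and 7 higher and 1 lower without liver 10. With limma on log2(FPKM + 1), where the test, the scale and the genes tested all differ, 7 of 91 were higher and 4 lower. The 13 genes included Cdo1, the cysteine dioxygenase, at 763.4 ± 78.9 FPKM in Ad_Chrebpa_HFLMCD and 548.9 ± 40.6 FPKM in Ad_GFP_HFLMCD livers (log2 fold change 0.55, edgeR adjusted p = 0.0110). Pipox, which oxidises the sarcosine that Gnmt makes, was at 92.2 ± 13.5 FPKM in Ad_Chrebpa_HFLMCD and 65.2 ± 5.63 FPKM in Ad_GFP_HFLMCD livers (log2 fold change 0.57, edgeR adjusted p = 0.0185). Chpt1, the cholinephosphotransferase of the last step to phosphatidylcholine, had a log2 fold change of 0.53 (edgeR adjusted p = 0.0105). These 3 genes kept their call on log2(FPKM + 1), and none overlapped between the groups.

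Smaller rises were called for Mat2b, the regulatory subunit that binds the Mat2a product (log2 fold change 0.29, edgeR adjusted p = 0.0372), and for the choline transporter gene Slc44a1 (0.34, adjusted p = 0.0452). Gclm, a subunit of the enzyme that begins glutathione synthesis (0.24), and Sqor, which oxidises sulfide (0.33), were called as well. Chkb and Etnk1, which phosphorylate choline and ethanolamine, had 0.29 and 0.20. Calls were also made for Srr (0.25), Adi1 of the methionine salvage pathway (0.25), and Oaz1, an inhibitor of polyamine synthesis (0.27). Of these 9 genes Sqor, Adi1 and Oaz1 were also called on log2(FPKM + 1). None of the 20 tested genes of folate one-carbon supply was called, and Gldc, of the glycine cleavage system, came nearest at 0.32 (edgeR adjusted p = 0.0509). Without 1 of the other 6 livers every call in the 7 lists was higher, and the number was 7 without liver 9, 4 without liver 11 or 13, 9 without liver 12, 8 without liver 15 and 3 without liver 16.

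Markers of cell types moved between the same groups. Of 11 hepatocyte markers 10 had positive log2 fold changes (median 0.20, 1 called higher), which is the size of the median of the 9 genes. All 6 cholangiocyte markers had negative log2 fold changes (median -0.97, 4 called lower). Their summed FPKM was 93.4 to 140.1 in Ad_Chrebpa_HFLMCD and 117.6 to 284.0 in Ad_GFP_HFLMCD livers. Most of that sum came from Spp1, which averaged 104.5 FPKM in Ad_Chrebpa_HFLMCD and 180.8 FPKM in Ad_GFP_HFLMCD livers. Spp1 was not among the 4 called markers (log2 fold change -0.71, edgeR adjusted p = 0.0805). Of 12 macrophage markers 1 was called higher and the median was -0.05. Of 5 erythroid markers Alas2 (0.29) and Hba-a2 (6.06) were called higher and Hba-a1 (-0.94) lower, and the median was -0.29. The stellate, endothelial, neutrophil and lymphocyte lists had 0 called. In whole liver, fewer cells of a type and less RNA per cell cannot be told apart, and the part of cell makeup in these results was not tested.

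**Figure D4:**
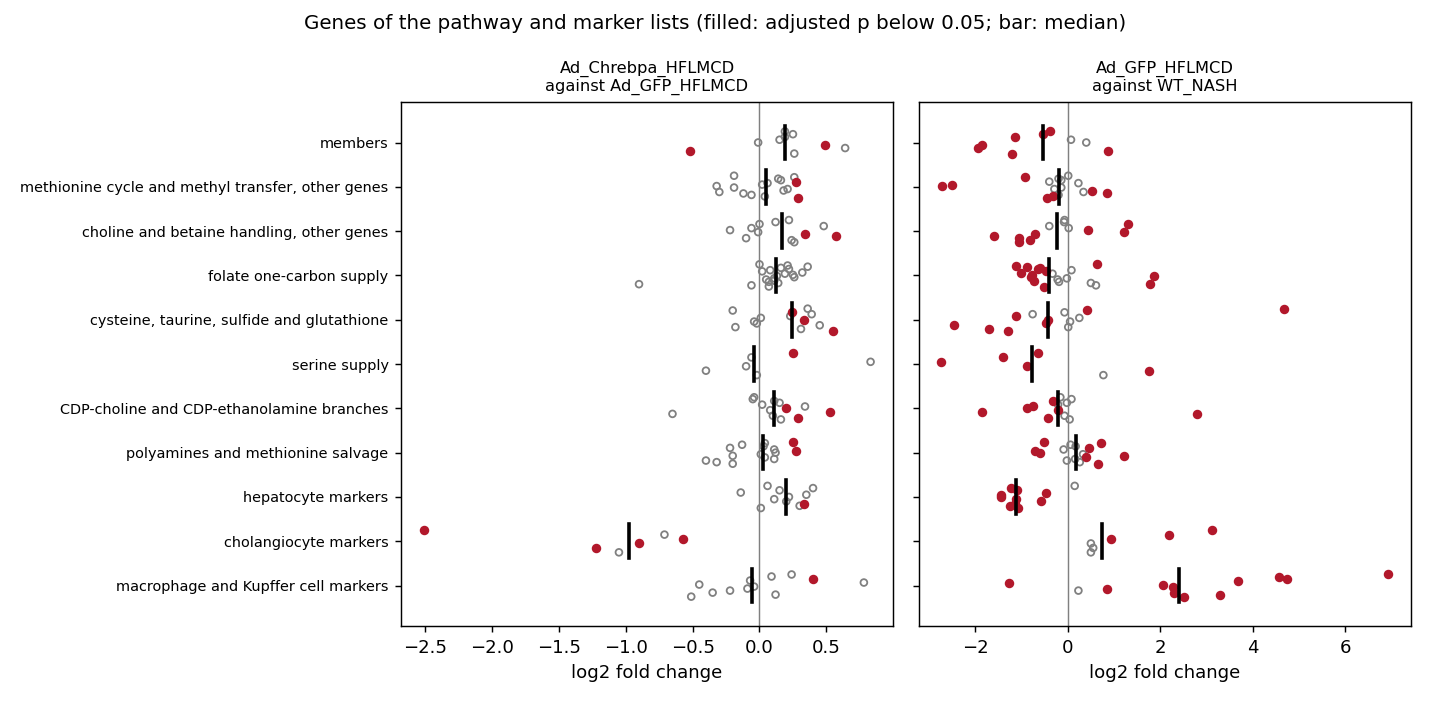
edgeR log2 fold changes of single genes in the 9 chosen genes, 7 pathway lists and 3 marker lists, in 2 comparisons with separate axes, filled where the adjusted p is below 0.05 and with a bar at each list's median. Called pathway genes lie to the right of 0 for Ad_Chrebpa_HFLMCD against Ad_GFP_HFLMCD (13 of 95), and on both sides for Ad_GFP_HFLMCD against WT_NASH (17 higher, 39 lower).

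Deletion of Chrebpα in hepatocytes under the NASH diet was set against AAV-GFP to ask what its loss does. None of the 9 genes passed the test, and none was free of overlap between the groups, where 7.6% of 12784 tested genes were (6.93% higher and 0.673% lower in LKO_NASH livers). Over all tested genes 0.0% were called by edgeR, with a lowest adjusted p of 0.244, and 1733 (13.6%) had an unadjusted p below 0.05, as 1 of the 9 did. DESeq2 called 151 genes (83 higher, 68 lower), none of them among the 9, and limma-voom called 0. The median log2 fold change of the 9 was -0.10, against 0.01 over all tested genes.

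Bhmt was the most variable of the 9 genes in these livers. It had 140.7, 872.3, 1945.7 and 814.3 FPKM in LKO_NASH livers 21 to 24, against 178.9, 722.0, 454.1 and 153.0 FPKM in WT_NASH livers 17 to 20. Livers 21, 17 and 20 were low and liver 23 was high, with a 13.8-fold range in LKO_NASH and a 4.72-fold range in WT_NASH livers. The log2 fold change of 1.16 had a 95% interval of -0.50 to 2.83 (edgeR adjusted p = 0.469). Leaving out 1 liver in turn gave log2 fold changes of 0.48 to 1.71, with adjusted p between 0.130 and 0.810. The counts of Bhmt carry decimals in 15 of 16 libraries, so its reads may be shared with the near copy Bhmt2.

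Gnmt had 416.1, 715.2, 1241.1 and 523.5 FPKM in LKO_NASH livers 21 to 24, against 560.4, 791.4, 658.9 and 469.2 FPKM in WT_NASH livers 17 to 20. Liver 23 was high again, and the 4 WT_NASH livers lay inside the range of the LKO_NASH livers. The log2 fold change was 0.08 (95% interval -0.70 to 0.85), and it was -0.35 without liver 23. Ahcy ranged from 360.6 to 542.0 FPKM in LKO_NASH and from 366.8 to 595.7 FPKM in WT_NASH livers, with a log2 fold change of -0.14 (95% interval -0.64 to 0.36).

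The SAM synthetase genes kept narrow ranges. Mat2a had 39.2, 37.1, 33.0 and 41.9 FPKM in LKO_NASH livers 21 to 24, against 36.9, 39.6, 33.0 and 44.9 FPKM in WT_NASH livers 17 to 20. The LKO_NASH values lay within the range of the WT_NASH values, and the log2 fold change was -0.18 (95% interval -0.43 to 0.07). Mat1a had 778.3 to 1174.4 FPKM in LKO_NASH and 953.9 to 1137.4 FPKM in WT_NASH livers (log2 fold change -0.23, 95% interval -0.65 to 0.19). The ratio of Mat1a to Mat2a was 30.0, 25.2, 31.2 and 18.6 in LKO_NASH livers, against 30.8, 24.1, 29.2 and 24.7 in WT_NASH livers. The ratio groups overlapped, with means of 26.2 ± 5.75 and 27.2 ± 3.34 (LKO_NASH and WT_NASH, SD, n = 4 each).

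Cbs had the lowest p of the 9 genes in the deletion experiment. It had 75.2, 104.6, 95.3 and 77.0 FPKM in LKO_NASH livers 21 to 24, against 94.3, 99.8, 119.1 and 97.6 FPKM in WT_NASH livers 17 to 20. Livers 21 and 24 were below every WT_NASH liver, and the other 2 lay within their range. The log2 fold change was -0.37 (SE 0.15, 95% interval -0.70 to -0.04), with an unadjusted p of 0.0319 and an adjusted p of 0.358 in edgeR. Pemt, Cth and Chdh had log2 fold changes of 0.01 (95% interval -0.33 to 0.35), -0.10 (95% interval -0.64 to 0.45) and a fold of 1.00 (95% interval -0.26 to 0.26 on the log2 scale).

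Of 93 tested genes in the neighbouring lists 0 were called in the deletion experiment, and their median log2 fold change was 0.07. The lowest unadjusted p belonged to Phgdh, the first enzyme of serine synthesis, which had 0.34, 0.05, 0.15 and 0.07 FPKM in LKO_NASH livers 21 to 24, against 0.17, 0.25, 0.34 and 1.33 FPKM in WT_NASH livers 17 to 20 (log2 fold change -1.94, edgeR adjusted p = 0.358). Liver 20 carried the WT_NASH mean, which was 0.522 ± 0.543 FPKM with it and 0.253 FPKM without it, against 0.152 ± 0.132 FPKM in LKO_NASH livers. Sds, which breaks serine down, had 167.4 ± 53.9 FPKM in LKO_NASH and 239.5 ± 41.7 FPKM in WT_NASH livers (log2 fold change -0.66, edgeR adjusted p = 0.359). Nnmt, which methylates nicotinamide at the expense of S-adenosylmethionine, had 57.9 ± 21.6 FPKM in LKO_NASH and 100.4 ± 46.1 FPKM in WT_NASH livers (log2 fold change -0.95, edgeR adjusted p = 0.365). These genes had the lowest unadjusted p of their lists, Sds after Phgdh, and none passed the test. All 12 macrophage markers had positive log2 fold changes in LKO_NASH livers (median 0.85, 0 called), and 2 of 11 hepatocyte markers did (median -0.30). Their part in the values of the 9 genes was not tested.

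The control groups of the 2 experiments were set side by side to show the 9 genes under the choline-free HFLMCD diet and under the NASH diet. The labels state no such comparison. Diet, feeding time, virus type, mouse line and handling in separate experiments differ together between Ad_GFP_HFLMCD and WT_NASH, and they cannot be told apart. Mat2a was higher, and Mat1a, Gnmt, Ahcy and Cbs were lower, in Ad_GFP_HFLMCD livers, whichever scale was used. By edgeR 7 of the 9 genes were called where 59.1% of 13485 tested genes were, so the number called says little about the 9. Of all tested genes 30.9% were called higher and 28.2% lower, and of the 9 genes 1 was higher and 6 lower. An unadjusted p below 0.05 was found for 7 of the 9 and for 63.5% of all tested genes. Their median log2 fold change was -0.54, against 0.01 over all tested genes.

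The scale matters for this pair of groups. FPKM relates each gene to the total of its library, whereas TMM in edgeR relates it to the bulk of genes, and the median difference over all genes was 0.479 towards Ad_GFP_HFLMCD livers when log2(FPKM + 1) was used. FPKM did not overlap for 73.4% of tested genes, 68.9% higher and 4.52% lower in Ad_GFP_HFLMCD livers. edgeR called 4161 genes higher and 3803 lower, and limma on log2(FPKM + 1) called 8045 higher and 659 lower. A gene lower on both scales was therefore lower against the bulk of genes and as a share of the library.

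Mat2a averaged 109.2 ± 11.6 FPKM in Ad_GFP_HFLMCD and 38.6 ± 5.01 FPKM in WT_NASH livers (SD, n = 4 each), with no overlap. Its edgeR log2 fold change was 0.88 (95% interval 0.62 to 1.14, adjusted p = 0.000134), and the difference on log2(FPKM + 1) was 1.48. Mat1a averaged 693.5 ± 89.0 FPKM in Ad_GFP_HFLMCD and 1040.2 ± 95.3 FPKM in WT_NASH livers, also with no overlap. Its log2 fold change was -1.21 (95% interval -1.52 to -0.89, edgeR adjusted p = 6.52e-05). The scale-free ratio of Mat1a to Mat2a stood at 5.18 to 8.23 in Ad_GFP_HFLMCD and 24.1 to 30.8 in WT_NASH livers. The 4 Ad_Chrebpa_HFLMCD livers, at 8.70 to 14.5, lay between these ranges.

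Gnmt and Ahcy showed the largest differences of the 9 genes in this comparison. Gnmt averaged 249.6 ± 55.5 FPKM in Ad_GFP_HFLMCD and 620.0 ± 138.1 FPKM in WT_NASH livers (log2 fold change -1.94, SE 0.22, edgeR adjusted p = 5.46e-05). Ahcy averaged 193.3 ± 19.5 FPKM in Ad_GFP_HFLMCD and 451.8 ± 105.0 FPKM in WT_NASH livers (log2 fold change -1.86, SE 0.19, edgeR adjusted p = 2.92e-05). Neither overlapped between the groups, and the highest Ad_GFP_HFLMCD values were 307.5 FPKM for Gnmt and 211.0 FPKM for Ahcy. The comparison of Ad_Chrebpa_HFLMCD with Ad_GFP_HFLMCD shares the Ad_GFP_HFLMCD livers, so the opposite signs of Mat2a, Gnmt and Ahcy in the 2 comparisons are not independent.

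Cbs averaged 71.7 ± 18.0 FPKM in Ad_GFP_HFLMCD and 102.7 ± 11.1 FPKM in WT_NASH livers (log2 fold change -1.14, edgeR adjusted p = 0.000284), and liver 9 of the first group, at 97.7 FPKM, lay within the WT_NASH range. Cth was called lower by edgeR with a log2 fold change of -0.54 (95% interval -0.98 to -0.10, adjusted p = 0.0370), but its difference on log2(FPKM + 1) was 0.12. The edgeR adjusted p of Cth was 0.0648 without liver 9, 0.0965 without liver 10, 0.0861 without liver 12, 0.0961 without liver 17 and 0.0911 without liver 18. Chdh was likewise called lower at -0.38 (edgeR adjusted p = 0.0109) with a difference of 0.24 on log2(FPKM + 1), so the direction of these 2 genes depends on the scale.

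Bhmt and Pemt were not called by edgeR. Bhmt averaged 776.1 ± 170.4 FPKM in Ad_GFP_HFLMCD and 377.0 ± 267.3 FPKM in WT_NASH livers, and the log2 fold change of 0.40 had a 95% interval of -0.61 to 1.41. Pemt had 257.8, 233.9, 269.5 and 255.1 FPKM in Ad_GFP_HFLMCD livers 9 to 12, against 132.8, 157.4, 178.6 and 158.4 FPKM in WT_NASH livers 17 to 20. Its FPKM did not overlap, yet its edgeR log2 fold change was 0.07 (95% interval -0.15 to 0.30). On log2(FPKM + 1) the differences were 0.70 for Pemt and 1.30 for Bhmt, and limma called both (adjusted p = 0.000144 and 0.0226).

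In the neighbouring lists edgeR called 56 of 95 genes in Ad_GFP_HFLMCD livers, a share near the 59.1% of all tested genes, with 17 higher and 39 lower where 30.9% and 28.2% of all were, whereas limma on log2(FPKM + 1) called 50 higher and 14 lower of 90. Genes lower on both scales included Sds, the serine dehydratase, at 55.2 ± 21.4 FPKM in Ad_GFP_HFLMCD and 239.5 ± 41.7 FPKM in WT_NASH livers (edgeR log2 fold change -2.74). Nnmt (-2.72), the methyltransferase gene Inmt (-2.50), Got1, a transaminase that also acts on cysteine sulfinate (-2.47), Chpt1 (-1.85), Pipox (-1.59), Sdsl (-1.41), Cdo1 (-1.30) and the folate polyglutamate synthase gene Fpgs (-1.12) were lower on both scales as well. Genes higher on both scales included Psat1 of serine synthesis at 7.24 ± 1.83 FPKM in Ad_GFP_HFLMCD and 1.38 ± 1.39 FPKM in WT_NASH livers (1.76), the choline transporter genes Flvcr1 (1.31) and Slc44a2 (1.21), and Smox, the spermine oxidase (1.21). Mtr, the folate-dependent methionine synthase that works beside Bhmt, was at 2.05 ± 0.220 FPKM in Ad_GFP_HFLMCD and 0.740 ± 0.0949 FPKM in WT_NASH livers (0.84). Amd1, which diverts S-adenosylmethionine to polyamines, was at 34.3 ± 4.67 FPKM in Ad_GFP_HFLMCD and 14.2 ± 1.74 FPKM in WT_NASH livers (0.65). Slc46a1, Srr and Azin1, called lower by edgeR at -0.61, -0.65 and -0.59, had differences of 0.02, 0.01 and 0.03 on log2(FPKM + 1).

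Cell type markers differed widely between these control groups. Of 11 hepatocyte markers 10 were called lower in Ad_GFP_HFLMCD livers by edgeR (median log2 fold change -1.13, against -0.54 for the 9 genes). With limma on log2(FPKM + 1) 6 of these markers were called lower and 1 higher (median difference -0.5). Their summed FPKM was 44549 to 54903 in Ad_GFP_HFLMCD and 59728 to 70290 in WT_NASH livers. Of 12 macrophage markers 10 were called higher and 1 lower (median 2.40), with sums of 993.4 to 1479.1 FPKM in Ad_GFP_HFLMCD and 67.6 to 149.5 FPKM in WT_NASH livers. Stellate cell markers were called higher for 6 of 8 (median 0.94) and erythroid markers lower for 5 of 5 (median -2.33). Their part in the differences of the 9 genes was not tested.

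Profiles over all 16 livers were compared by the mean absolute difference of log2 CPM (counts scaled to library size) after centring each gene on its own mean, among 10909 other genes. Gnmt and Ahcy were close to each other (0.192), and both had Serpina1d, an alpha-1 antitrypsin gene of hepatocytes, as the nearest gene (0.152 for Gnmt and 0.077 for Ahcy). The next nearest to Ahcy was Gm4737 (0.106). Mat1a was nearest to Tgds (0.110) and Cdip1 (0.116), and among the 9 genes to Cbs (0.189). Mat2a was nearest to Cstf3, a factor of RNA 3' end processing (0.116), and Tmem209 (0.121), and among the other 8 of the 9 genes it was farthest from Gnmt (1.158). Bhmt was nearest to Dsg1c (0.305), and Pemt to Nadsyn1 (0.069) and Il11ra1 (0.073). The difference grows with a gene's own variation, whose mean absolute deviation was 0.655 for Bhmt and 0.137 for Pemt, so it does not rank the 9 genes against each other. Cbs was nearest to March6 (0.147) and Insr (0.150), Cth to Bcat2 (0.154) and Ggt6 (0.163), and Chdh to Bcl2l2 (0.072) and Iars2 (0.073). The 16 livers fall into 2 experiments, so a shared difference between experiments counts in every one of these values.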

How the data were processed

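Liver RNA from 16 mouse samples was sequenced, with 4 libraries in a group. Per the file headers, every deposited table holds an expected count per gene (not normalised) beside the FPKM that the authors derived. HISAT2 was used per the submitters' processing notes; the sources used here name neither its version nor the counter, build or annotation. In each library 25.3% to 27.2% of expected counts had decimals. The 17436 entries were reduced to 17410 genes by summing 26 transcript entries, and unlisted genes (lowest listed FPKM 0.01) were taken as 0. Gene numbers matched the RefSeq GRCm38.p6 table for 17371.

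After rounding, expected counts went into edgeR 4.0.16 under R 4.3.3 (filterByExpr, TMM, two-sided quasi-likelihood F test, 95% intervals) in 3 separate fits of 8 libraries, adjusted by Benjamini-Hochberg over all genes tested, with calls at an adjusted p below 0.05. FPKM is given per liver or as mean ± SD. limma 3.58.1 and DESeq2 1.42.0 served as alternatives, with pseudocounts of 1 and 0.1 on FPKM. The recovery of known changes by edgeR alone was checked on simulated data. In LKO_NASH against WT_NASH it called 12% of simulated 1.5-fold and 62% of 2-fold changes in the right direction. In Ad_Chrebpa_HFLMCD against Ad_GFP_HFLMCD it called 58% and 84%. Changes of this size can therefore be missed, most of all in the deletion experiment. Tables used pandas 2.3.3 and NumPy 2.4.6 (Python 3.11.15), and plots matplotlib 3.10.9. Groups came from the labels.

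The 9 genes, 7 pathway lists (97 genes) and 8 marker lists were chosen with earlier results of these data known. All 9 genes and Mlxipl were named in each comparison; from each pathway list up to 4 called genes with the lowest adjusted p, or, with none called, up to 2 with the lowest unadjusted p, were candidates, and the 2 nearest profiles of each of the 9 genes (mean FPKM of at least 1, prior count 2). Ly6g was not used here, and some genes that the rule names are not reported here. Counts of the whole gene do not separate isoforms, and no source states whether counting used strand.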

Additional observations from a re-analysis of the deposited data

Results flagged for a closer look

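In 5 of 154 groups of 4 livers one liver stood far from the other 3, which chance gives in about 5% of groups. Chdh in Ad_GFP_HFLMCD livers was one of them, with liver 11 at 39.69 FPKM below the others at 47.61 to 49.03 FPKM. Phgdh stood at 1.33 FPKM in WT_NASH liver 20, Sqor at 84.61 FPKM in Ad_GFP_HFLMCD liver 12, Slc44a2 at 10.86 FPKM in Ad_GFP_HFLMCD liver 10 and Sdsl at 6.51 FPKM in Ad_GFP_HFLMCD liver 9. Each of these was the highest liver of its group. Without liver 11 the edgeR log2 fold change of Chdh in Ad_Chrebpa_HFLMCD against Ad_GFP_HFLMCD was 0.13.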

How the results depend on the processing

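No paired analysis was possible because every liver has a number of its own, 9 to 24, and the groups share none. In LKO_NASH against WT_NASH, edgeR with all genes called 0, DESeq2 called 151, and all 16 libraries in 1 fit called 152. Leaving out livers 19 and 21 together gave 1521 (622 higher, 899 lower). The labels give no reason to leave out this pair, so that count is not read as an effect of the deletion. Leaving out 1 liver gave 0 to 420, the highest without liver 21 (166 higher, 254 lower), with 0 of the 9 genes called throughout. In Ad_Chrebpa_HFLMCD against Ad_GFP_HFLMCD, where 1111 genes (677 higher, 434 lower) were called, DESeq2 called 1903, all 16 libraries 313, and leaving out 1 liver 393 to 1707, with 595 without liver 11, 519 without liver 12, 521 without liver 13, 1707 without liver 14 (930 higher, 777 lower), 606 without liver 15 and 393 without liver 16; limma on log2(FPKM + 1) called 429 higher and 984 lower. Of the 9 genes, 1 was called with all 16 libraries in 1 fit, and 0 to 3 without 1 liver (0 without liver 12, 13 or 16). DESeq2 called 21 genes of the pathway lists, and leaving out 1 liver gave 3 to 20. The pathway lists on log2(FPKM + 1) were added after seeing the data.

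Log2 fold changes near 0 changed sign. In LKO_NASH against WT_NASH, Gnmt was -0.02 with limma-voom and -0.35 to 0.26 without 1 liver. Ahcy, Cth and Chdh were 0.03, 0.07 and 0.15 with limma on FPKM, at pseudocounts of 1 and 0.1 and without a filter. On that scale the median of all genes was 0.111 higher. Chdh was 0.01 with limma-voom, 0.02 at a mean FPKM of at least 1 and 0.02 without livers 19 and 21. Without 1 liver the ranges were -0.26 to 0.03 for Ahcy, -0.08 to 0.13 for Pemt, -0.26 to 0.05 for Cth, -0.05 to 0.04 for Chdh and -0.10 to 0.21 for Mlxipl. In Ad_Chrebpa_HFLMCD, Bhmt was 0.00 with limma-voom, 0.00 with all 16 libraries, and -0.13 to 0.09 without 1 liver. In Ad_GFP_HFLMCD against WT_NASH, Cth was 0.12 to 0.13 and Chdh 0.24 on FPKM. Mat1a, Mat2a, Gnmt, Ahcy and Cbs kept direction and call there under all 17 alternatives. In Ad_Chrebpa_HFLMCD, Mat2a was called under 12 and Ahcy under 13 of 17 alternatives, with no change of sign. The causes were not tested.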

Other observations

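The 3 lowest Bhmt values among the 8 NASH livers, in LKO_NASH liver 21 and WT_NASH livers 17 and 20, came from the livers with the 3 lowest values of Mlxipl, a coincidence chosen after the values were seen. Mlxipl had 47.5, 100.1, 85.1 and 72.9 FPKM in LKO_NASH livers 21 to 24, against 50.1, 77.5, 80.4 and 56.4 FPKM in WT_NASH livers 17 to 20. Low livers thus occurred in both groups, 1 in LKO_NASH and 2 in WT_NASH.

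Mettl16, named outside the rule because its motif is printed for Mat2a, had a mean of 4.26 FPKM in Ad_Chrebpa_HFLMCD and 5.12 FPKM in Ad_GFP_HFLMCD livers (log2 fold change -0.19, edgeR adjusted p = 0.207). It had 3.40 FPKM in LKO_NASH and 3.30 FPKM in WT_NASH livers (log2 fold change -0.11, edgeR adjusted p = 0.647). For Ad_GFP_HFLMCD against WT_NASH the log2 fold change of Mettl16 was 0.01 (edgeR adjusted p = 0.946), although its mean FPKM was higher in Ad_GFP_HFLMCD livers. Slc7a11, the cystine importer gene, averaged 0.762 ± 0.107 FPKM in Ad_GFP_HFLMCD and 0.0175 ± 0.0206 FPKM in WT_NASH livers (edgeR adjusted p = 3.73e-05).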
